A study of Mus musculus with 40 samples.

Results

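C48, C54 and C55 are 3 of the 8 mice with a high tumor mass (HT) and 3 of the 40 mice sequenced. They were picked from these same data: among the HT mice they had the highest values of the proteasome subunits and very high Fbxo32. Here they are set against the other 5 HT mice, C37, C38, C46, C60 and C62, over all 12573 genes of the table. Because readouts of the muscle chose the mice, every gene of this split counts as used, and the split is described without a test. RNA came from the gastrocnemius, a calf muscle of mainly fast fibres, of female C57BL6/J mice, with 1 library per mouse and 8 mice per group. HT mice received Lewis lung carcinoma (LLC) cells, a transplantable mouse lung tumor line, and were taken at 11 to 12 weeks of age with a tumor of 2 g or more. LT mice (low tumor mass) received the same cells and were of the same age, with a tumor of 1.2 g or less. The 1wk and 2wk mice were taken 1 and 2 weeks after the cells, at 9 and 10 weeks of age, and PBS mice received buffer and were 12 weeks old. The tumor mass, muscle mass and week of each mouse are not given in the sources used here. The label of severe atrophy could therefore not be checked against any weight, and C48, C54 and C55 are called the proteasome-high mice below.

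Muscle takes its contractile proteins apart largely through the ubiquitin-proteasome system. Ubiquitin ligases of muscle, such as atrogin-1 (Fbxo32) and MuRF1 (Trim63), tag proteins with ubiquitin, and the proteasome, a core that cuts and a cap that binds and unfolds the tagged protein, degrades them. Autophagy and the lysosome clear organelles and larger aggregates alongside it. FoxO transcription factors are known inducers of both systems in wasting muscle, and glucocorticoids, cytokines and fasting are known to act upstream of them.

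Levels are the authors' normalized values, called normalized reads here. Values of the proteasome-high mice are given in the order C48, C54 and C55, and those of the other HT mice in the order C37, C38, C46, C60 and C62. For a gene list, each mouse has a list value: its log2(value + 1) minus the PBS mean, averaged over the measured members. From the steps between low values, the HT libraries held an estimated 4.16 to 7.76 M reads (C48 6.97, C54 4.78, C55 4.25), the LT libraries 3.49 to 7.24 M and the PBS libraries 19.3 to 28.7 M. Each read was thus worth 1.58 to 2.87 normalized reads in HT, which makes low values there coarse. HT and LT were similar in depth, whereas depth and the difference between HT and PBS cannot be told apart. No batch is named for any library.

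The proteasome list, 32 subunits of the core and the cap, chose the mice. Its value was 0.81, 1.13 and 1.41 in the proteasome-high mice against -0.02, 0.10, 0.09, 0.29 and 0.47 in the other HT mice, on the log2 scale. The mice just inside and just outside the split were thus C48 at 0.81 and C62 at 0.47. Among the 32 mice of the other groups the highest value was 0.24, in 1 mouse of the 1wk group, and the 8 LT mice reached 0.16. The HT mice therefore ran from the PBS range up without falling into separate blocks, with C60 and C62 between the other 3 low mice and C48.

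Fbxo32, the atrogin-1 ligase and the other readout of the choice (chromosome 15, 58039275 to 58078289, minus strand), was at 28330, 63494 and 67298 normalized reads in the proteasome-high mice and at 5508, 3822, 3413, 12870 and 19646 in the other HT mice. PBS mice lay between 2160 and 4891 (median 3370), and LT mice between 2874 and 8393 (median 4868). The groups of 3 and 5 did not overlap and differed 6.96-fold (2.80 on the log2 scale), but C60 and C62 were also above every PBS and LT mouse. C54 and C55 stood more than C48 above the rest.

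**Figure D1:**
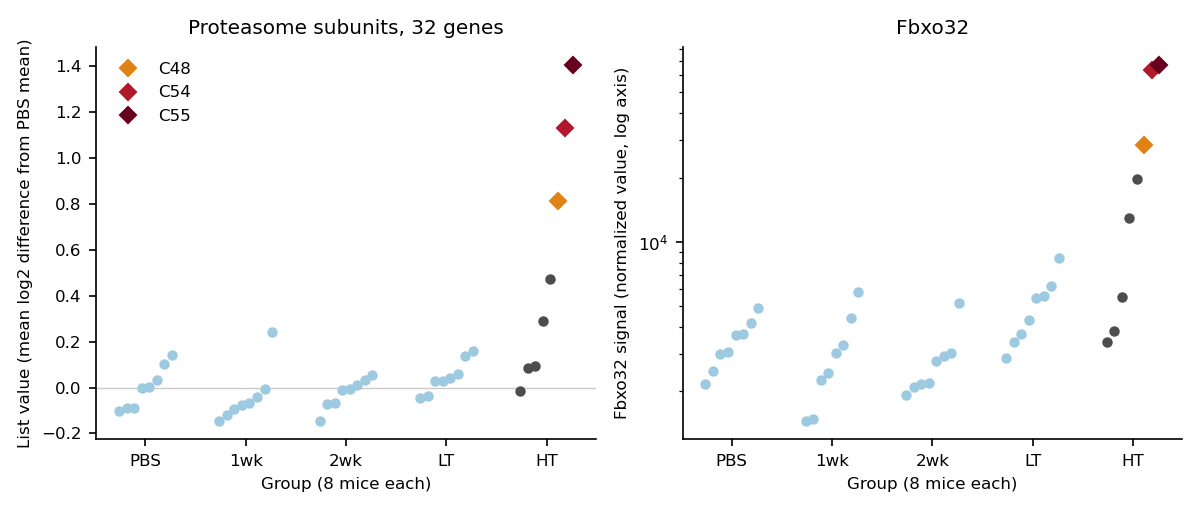
Values that chose the mice, per mouse and group: the proteasome list value (mean log2 difference from PBS over 32 genes) and Fbxo32 (normalized reads, log axis), 1 point per mouse in order of value. C48, C54 and C55 lie above all other mice on both, C60 and C62 come next, and the other HT mice lie among or near the remaining groups.

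Over all genes, the proteasome-high mice were all above the other 5 HT mice in 1338 genes (10.6% of 12573) and all below them in 1326 (10.5%). Of these, 262 above (2.08%) and 390 below (3.1%) had means on the log2 scale that were 2-fold or more apart. With equal library totals the numbers were 1636 above and 984 below, and 323 above and 324 below at 2-fold, so the balance of the directions depended on the scaling. The median difference of all genes moved little, from -0.02 as deposited to 0.02 with equal totals. The counts of list members below are to be read beside these shares, and no test stands behind them.

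Psmd2, a scaffold subunit of the proteasome cap (chromosome 16, 20470402 to 20482165, plus strand, in file coordinates that fit mm39), was at 8743, 9198 and 9917 normalized reads in the proteasome-high mice and at 3867, 4274, 3447, 5311 and 6004 in the other HT mice. PBS mice lay between 2413 and 4029. The 2 sets of HT mice did not overlap and differed by 1.05 (log2), with little spread among the 3. Bnip3, a mitophagy receptor of the outer mitochondrial membrane, was at 4200, 13040 and 19238 against 3358, 3678, 4153, 4590 and 4754. Here C48 lay inside the range of the other 5, so that only C54 and C55 stood out, although the mean difference was 1.32 (log2). The marker therefore did not hold for all 3 mice.

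In the core, all 14 subunits were above the other HT mice in each of the 3. The differences ran from 0.49 for Psmb7, a catalytic subunit, to 1.15 for Psma7, a subunit of the outer ring (log2). Psma7 was at 3203, 3602 and 5443 normalized reads against 1604, 1652, 1527, 1877 and 2405. In the cap, 17 of 18 subunits were above. Psmd8, the cap subunit with the largest difference (1.45), was at 5417, 7378 and 10260 against 2112, 2611, 2519, 2969 and 3608, and Psmc5, an ATPase of the cap base, had the smallest (0.61). Psmd12 was the exception, at 2207 in C48 and 2279 in C62. The same 31 subunits were also above each of the other 37 mice, which was true of 610 of all genes (4.85%). Core and cap subunits thus stood apart nearly to a gene in the mice that they had helped to choose.

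The genes around the proteasome did not follow as a whole. Of 14 assembly factors and activators, 4 were above in all 3 mice, among them Pomp, the maturation protein of the core, and Psme4, an activator cap. Zfand5, a proteasome-binding zinc finger protein of atrophying muscle, was at 4915, 11738 and 12259 against 4090, 4449, 4710, 4917 and 5302, again without C48. Of 5 immunoproteasome genes none was above, and Psmb10, an inducible catalytic subunit, was below at 96.9, 89.3 and 60.8 against 134, 100, 140, 106 and 112. After quantile normalization, and with equal library totals, none of the 5 was below. Nfe2l1, the transcription factor known to raise proteasome subunits when proteasome activity is short, differed by only 0.08 (log2).

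**Figure D2:**
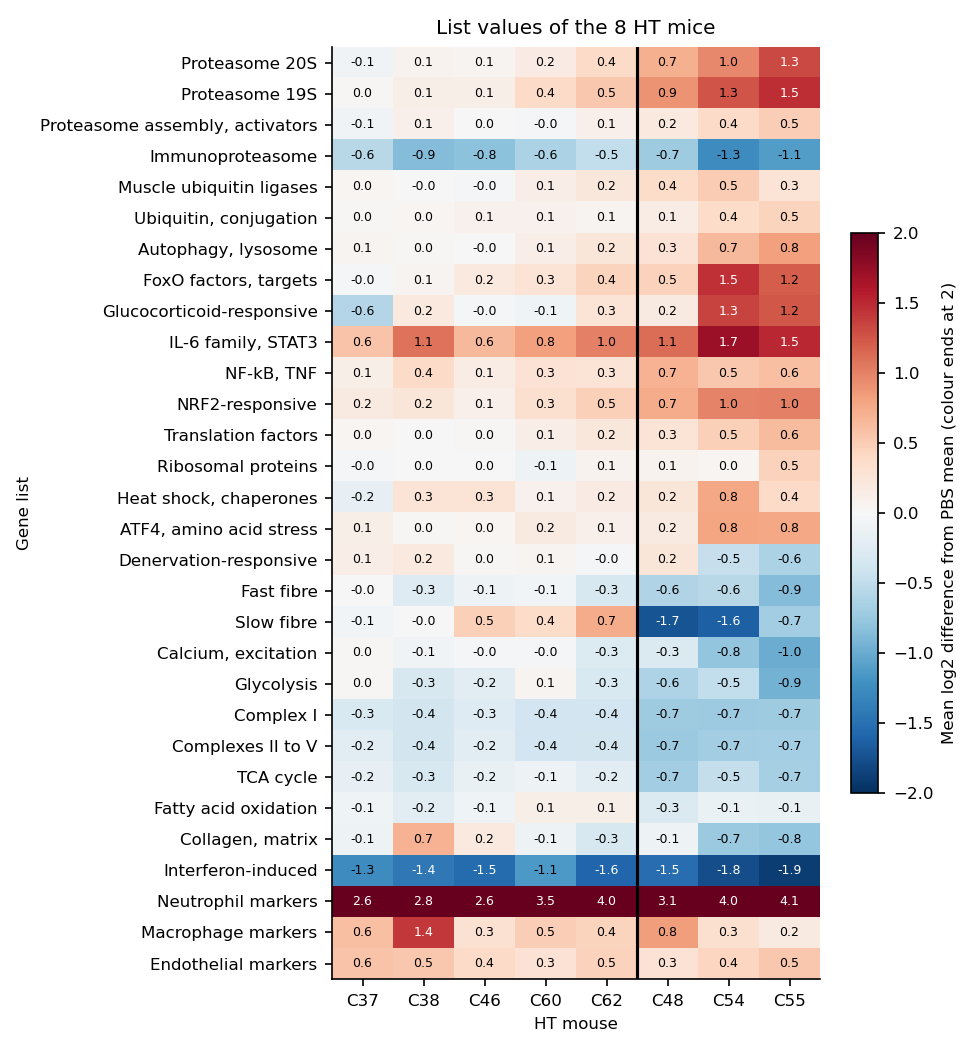
Heat map of list values, 1 row per gene list and 1 column per HT mouse (the other 5 left of the line, C48, C54 and C55 right of it), with the mean log2 difference from PBS as colour and printed number. The proteasome rows put C48, C54 and C55 above the other HT mice, and the rows of the respiratory chain, the citric acid cycle and glycolysis put them below.

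Promoters of some list members are shown, each of which holds 1 of 2 motifs looked for, and letters are a description of sequence only. The motifs were GTAAACA, a FoxO-type site, and TGACNNNGC, an antioxidant response type site, searched on both strands in RefSeq promoters of 250 bases before and 50 after the start (build GRCm38.p6). GTAAACA stood in 3.65% of 32851 promoters, in 2 of 24 of the muscle ligases (8.33%) and in 0 of 26 of the proteasome subunits with an entry. TGACNNNGC stood in 12.4% of all promoters, in 5 of 26 of the proteasome subunits (19.2%), in 3 of 24 ligases (12.5%) and in 8 of 17 NRF2-responsive genes (47.1%). Fbxo32 had no entry. Psmd12 also held TGACNNNGC, at -247 from the start, and its window is not printed. Capitals mark the motif, in the orientation of the gene. The Trim63 window is chr4:134314870-134315169 on the plus strand, with the match at -194 from the start. The Srxn1 window is chr2:152105274-152105573 on the plus strand, with the match at 28. The Psmb5 window, of a catalytic core subunit, is chr14:54617946-54618245 on the minus strand, with the match at -47.
Trim63: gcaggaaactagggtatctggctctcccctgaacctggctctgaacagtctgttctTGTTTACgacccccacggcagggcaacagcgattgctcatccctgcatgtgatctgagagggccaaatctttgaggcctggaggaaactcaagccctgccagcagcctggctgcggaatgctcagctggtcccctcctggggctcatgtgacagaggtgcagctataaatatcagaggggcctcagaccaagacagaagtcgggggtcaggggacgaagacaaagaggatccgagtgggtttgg
Srxn1: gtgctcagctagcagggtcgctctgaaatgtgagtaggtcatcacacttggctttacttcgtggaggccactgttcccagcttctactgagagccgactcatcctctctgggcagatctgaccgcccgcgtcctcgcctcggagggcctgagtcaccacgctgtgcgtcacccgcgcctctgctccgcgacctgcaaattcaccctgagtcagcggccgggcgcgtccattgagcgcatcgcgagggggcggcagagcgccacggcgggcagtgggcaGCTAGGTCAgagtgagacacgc
Psmb5: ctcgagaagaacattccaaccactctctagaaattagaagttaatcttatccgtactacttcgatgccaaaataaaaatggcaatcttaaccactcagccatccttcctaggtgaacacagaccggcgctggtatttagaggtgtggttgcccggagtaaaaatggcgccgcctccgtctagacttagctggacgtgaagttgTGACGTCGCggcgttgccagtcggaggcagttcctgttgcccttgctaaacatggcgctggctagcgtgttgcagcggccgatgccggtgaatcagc

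Trim63, the MuRF1 ligase that ubiquitinates thick filament proteins, was at 22676, 66005 and 86381 normalized reads against 3787, 2951, 3265, 6762 and 13071 in the other HT mice. PBS mice lay between 2752 and 5237. The difference was 10.05-fold (3.33 on the log2 scale) without overlap, and C60 and C62 were also above the PBS range. Of 29 muscle ubiquitin ligases, 7 were above and 3 below, with members on both sides and a median difference of 0.03. Fbxo31, another F-box protein, was at 4243, 5518 and 6592 against 2088, 1982, 1965, 2638 and 2720. Fbxo30, the ligase also called MUSA1, was at 240, 645 and 431 against 109, 204, 231, 152 and 239. The 3 below were Klhl31 (-0.91), Trim55 (-0.55), a MuRF relative, and Fbxo40 (-0.20).

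Ubiquitin itself separated the mice differently. Ubb, which encodes ubiquitin, was at 16698, 42242 and 49007 normalized reads against 14960, 13432, 13516, 16987 and 22525. C54 and C55 were above all other HT mice, whereas C48 lay below C60 and C62. Usp14, a deubiquitinase bound to the proteasome cap, was above in all 3, at 1461, 2105 and 2142 against 745, 888, 832, 1012 and 946. Of 26 genes of ubiquitin and its conjugation, 6 were above and 3 below.

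Autophagy and lysosome genes were above more often than below, 10 and 2 of 35, with a median of 0.41 (log2) against -0.02 for all genes. Ctsl, a lysosomal protease long used as an atrophy marker, was at 5370, 10820 and 12135 normalized reads against 2479, 3163, 2563, 3113 and 3611. Sqstm1, the p62 receptor that carries ubiquitinated cargo, was at 10998, 23542 and 24177 against 7033, 5739, 5306, 8650 and 8157. In both, the 3 mice were above every other HT mouse, and C48 was the lowest of the 3. Gabarapl1, an autophagosome protein of the ATG8 family, was at 788 in C48, inside the range of the other HT mice (665 to 1146), and at 2763 and 3195 in C54 and C55. Retreg1, a receptor for autophagy of the endoplasmic reticulum chosen after its values were seen, went furthest in this way. It was at 2230 in C48, 31582 in C54 and 41686 in C55, against 2129, 2778, 3390, 3340 and 3596. Ulk2, a kinase that starts autophagy, and Becn1 were the members below.

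Of 18 FoxO factors and targets, a known upstream signal, 5 were above and 1 below, with a median difference of 0.75 (log2). Eif4ebp1, the repressor of cap-dependent translation, was at 1921, 4937 and 6090 normalized reads against 544, 607, 650, 900 and 955. Gadd45a, a growth arrest gene that rises in denervated muscle, was at 1392, 2672 and 3054 against 410, 460, 437, 408 and 559. Tgif1, a homeobox repressor, was at 235, 750 and 735 against 56.9, 65.6, 56.3, 80.5 and 135. All 3 genes kept the order of C48 between the other 5 and the pair of C54 and C55.

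Of 19 glucocorticoid-responsive genes, 6 were above and none below, with a median of 0.68 (log2). Mt1, a metallothionein, was at 1066, 5335 and 4054 normalized reads against 98.1, 745, 208, 164 and 646. Ddit4, an inhibitor of mTORC1 signaling, was at 124 in C48, within the other HT mice (90.2 to 413), and at 3176 and 1627 in C54 and C55. A single PBS mouse reached 1854 in Ddit4, so that C55 was not outside the controls. Of 19 genes of the interleukin-6 family and STAT3, 4 were above and 1 below. Il6ra, a receptor chain for interleukin-6, was at 89.0, 742 and 845 against 30.05, 47.4, 56.3, 83.4 and 64.6. PBS mice reached 114 and LT mice 196 in Il6ra, so that C48 lay within both groups. Serpina3n, an acute phase serpin, was at 419, 594 and 472 against 53.3, 362, 60.4, 65.1 and 204, so that C38 came close to C48. Lcn2, a neutrophil and acute phase protein, was at 159, 508 and 588 and reached 169 in C62, above C48. Of the 8 neutrophil markers in the table (of 24 listed, Lcn2 among them) none separated the mice. Their list value was 3.08, 3.96 and 4.08 against 2.61, 2.75, 2.62, 3.46 and 4.01 (log2), above the highest PBS mouse at 0.32 throughout, and their summed level was 1041 to 2756 in the 3 and 742 to 2506 in the 5.

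Of 19 genes of NF-kB and tumor necrosis factor signaling 4 were above. Tnfrsf12a, the TWEAK receptor, was at 548, 658 and 1526 normalized reads against 125, 502, 431, 224 and 237, but 1 PBS mouse reached 775. Of 18 genes of myostatin and activin signaling 2 were above and 3 below, and the median of this list changed sign with the scaling (-0.08 as deposited, 0.09 after quantile normalization). Mstn, myostatin, a secreted restraint on muscle growth, was at 1678, 3988 and 5579 against 1057, 1450, 1517, 1417 and 1278. The 3 mice were above the other HT mice. The highest PBS mouse was at 1216, and every HT mouse except C37 was above it.

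NRF2-responsive genes, the antioxidant defence, had 9 of 20 members above and 1 below. Srxn1, the sulfiredoxin whose promoter is printed above, was at 1014, 3255 and 3772 normalized reads against 395, 443, 367, 494 and 621. Gclm, a subunit of the enzyme that starts glutathione synthesis, was at 516, 1013 and 892 against 153, 195, 200, 181 and 236. Neither gene overlapped. The PBS medians were 382 and 150, and of the other 5 HT mice C62 lay furthest above them in both genes. Gsta4, a glutathione transferase, was the member below, at 87.4, 58.7 and 24.9 against 153, 118, 91.7, 129 and 129.

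Of 45 translation factors 17 were above and 1 below, with a median of 0.43 (log2). Eif4a1, the helicase of the cap-binding complex, was at 1717, 3383 and 4598 normalized reads against 1183, 1237, 1275, 1267 and 1472. Of 75 cytoplasmic ribosomal proteins 10 were above and none below, but only 4 were above after quantile normalization and 6 with equal library totals. In the polyamine list, 3 of 11 genes were above and 3 below, with a median of -0.06. Odc1, the first enzyme of polyamine synthesis, was above at 2472, 3220 and 2991 against 579, 1037, 815, 1017 and 1096. Of 31 heat shock proteins and chaperones 8 were above and 1 below, but Hspa1b, the inducible HSP70, was high only in C54 (57.1, 1688 and 125 against 20.1, 178, 249, 49.8 and 28.7).

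Among the genes with the lowest values were Aqp4, Ky, Plcd4 and Casq1. Aqp4, the water channel of fast fibres, was at 157, 43.4 and 11.0 normalized reads against 987, 649, 1121, 701 and 334. Its difference of -4.0 (log2) ran without overlap, in the order C55, C54, C48 and then C62. Ky, a Z-disc protein needed for muscle maintenance, was at 1176, 179 and 102 against 3935, 1561, 2207, 3170 and 2127. Plcd4, a phospholipase C, was at 1312, 107 and 27.6 against 2616, 1926, 1750, 2087 and 1315, so that C48 was level with C62 and the mean difference of -3.57 came from C54 and C55. Casq1, the calcium store protein of the fast sarcoplasmic reticulum, was at 15294, 7059 and 2770 against 35442, 25467, 33926, 28668 and 16510. Of 28 genes of calcium handling and excitation 2 were above and 11 below. Atp2a1, the fast calcium pump, was chosen after its values were seen because it did not follow, with a difference of -0.07 that turned to 0.09 after quantile normalization.

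Of 34 sarcomere and Z-disc genes 14 were below and 2 above. Those above were Flnc, filamin C, which is recruited to damaged Z-discs (10092, 19656 and 18627 normalized reads against 4734, 7741, 7368, 8254 and 8480), and Nrap. In 1 PBS mouse Flnc was at 24541, above all HT mice. Of 14 fast fibre genes 7 were below, with a median of -0.49, and after quantile normalization 4, with a median of -0.24. Among the 7 was Pvalb, the calcium buffer parvalbumin, at 60358, 90497 and 67225 against 141486, 120771, 143094, 125695 and 98402. Of 15 slow fibre genes 10 were below, with a median of -1.83 (log2). Myh7, the slow myosin heavy chain, was at 1105, 1147 and 3828 against 8169, 4789, 8296, 6897 and 10250. The slow fibre level varied as widely among controls, with Myh7 between 479 and 9424 in PBS, and the list value of the 3 mice (-1.73, -1.63 and -0.69) lay inside the PBS range of -2.23 to 0.93. How much slow muscle each sample held is not given, and its part in these values was not tested.

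Of 24 denervation-responsive genes 5 were above and 9 below. Musk, the receptor kinase of the endplate, was at 540, 339 and 301 normalized reads against 130, 191, 140, 161 and 146, and Runx1, a transcription factor induced on nerve loss, at 58.8, 138 and 133 against 33.2, 52.8, 39.6, 37.4 and 25.3. Chrne, the adult epsilon subunit of the acetylcholine receptor, was below at 73.1, 56.1 and 55.2 against 231, 162, 160, 178 and 89.9. The synaptic genes thus stood on either side.

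Genes of energy metabolism were below far more often than above. In complex I of the respiratory chain 22 of 37 genes were below and 0 above, in complexes II to V 30 of 42 and 0, in the citric acid cycle 16 of 25 and 0, and in glycolysis 13 of 31 and 0. Each of these 4 lists had a median of -0.41 (log2). Sdhb, the iron-sulfur subunit of complex II, was at 2669, 2676 and 2593 normalized reads against 4622, 4290, 4855, 4124 and 4541. The 3 mice were within a few percent of each other here, unlike in Fbxo32 and Trim63. The list value of complex I was likewise -0.71, -0.73 and -0.71, against -0.39 to -0.25 in the other HT mice, which were themselves below PBS. Pgam2, the muscle phosphoglycerate mutase, was at 9103, 4715 and 2312 against 18663, 14638, 17780, 15804 and 12436, with the 3 spread widely. Fatty acid oxidation had 12 of 31 genes below and 3 above. Acot2, a mitochondrial thioesterase, was above at 199, 986 and 1060 against 143, 127, 107, 144 and 172.

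The proteasome-high mice were not alike, and what follows was looked for after their values were seen. In a principal component analysis of the 8 HT mice the first component held 63.2% of the variance, with C55 at 62.8, C54 at 46.9, C48 at -3.1 and the other 5 between -26.3 and -10.2. On the second (11.1%) C48 stood alone at -35.3, with all others between -1.2 and 10.95. C54 and C55 were both above the other 6 HT mice, with means 2-fold or more apart, in 735 genes (5.85%) and both below them in 874 (6.95%). These counts are not on a par with the 262 and 390 of all 3 mice, since fewer mice have to separate. The pair was also set against the other 5 HT mice alone, among the 9981 genes with an HT mean of at least 50 normalized reads. It was above with means 2-fold or more apart in 714 genes. C48 was beyond the other 5 in the same direction in 360 of these (50.4%), inside their range in 308 and beyond it on the opposite side in 46. Of 704 such genes lower in the pair, C48 was likewise below the other 5 in 360 (51.1%). How often C48 lay beyond the other 5 over all genes was not counted, so the 50.4% and 51.1% have no background beside them. At the median C48 had gone 20.1% of the way of the pair in the higher genes and 22.9% in the lower ones.

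**Figure D3:**
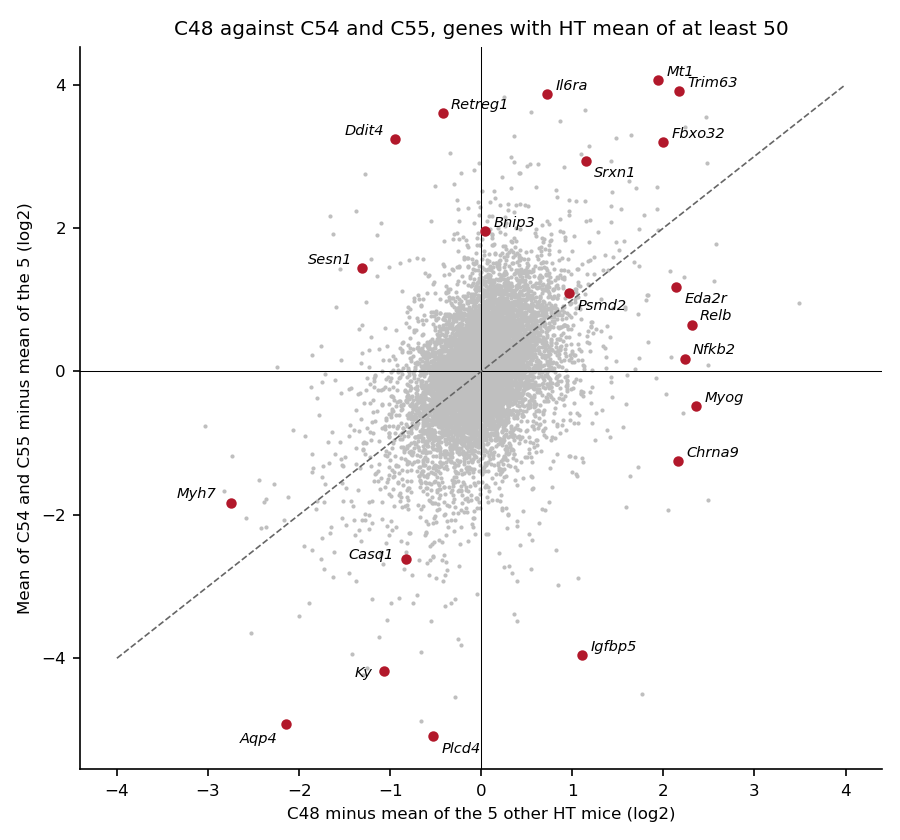
Log2 difference from the mean of the other 5 HT mice in C48 (x axis) and in the mean of C54 and C55 (y axis), 1 point per gene with an HT mean of at least 50 normalized reads, and a dashed line of equal difference. Psmd2 lies near the line, Retreg1 and Bnip3 lie high for the pair but not for C48, and Myog and Nfkb2 are high in C48 only.

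Some genes set C48 apart from the other HT mice altogether. Among the 9981 genes with an HT mean of at least 50 it was above all 7 in 129 and below all 7 in 98 where it was 2-fold or more from their mean. Without a fold limit C48 was the highest of the 8 in 1162 genes and the lowest in 1257. The other HT mice were each highest in 606 to 2697 genes and lowest in 734 to 2343. Standing alone in many genes was thus not particular to C48. Myog, the myogenin of differentiating and denervated muscle, was at 804 normalized reads in C48, 120 in C54 and 102 in C55, against 114, 175, 167, 161 and 171. Nfkb2, a subunit of the alternative NF-kB pathway, was at 607, 153 and 138 against 138, 131, 79.2, 144 and 169, and Relb, its partner, at 388, 117 and 127 against 61.7, 74.7, 75.0, 74.7 and 107. C48 alone was high in these 3, while C54 and C55 lay in or near the range of the others. Chrna9, a nicotinic receptor subunit, was at 273 in C48 and at 12.8 to 100 in the other 7. Hdac4, a deacetylase that links nerve loss to Myog, was at 1301 against 421 to 624 in the other 7.

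Other genes set C48 opposite to the pair. Igfbp5, an IGF-binding protein of muscle, was at 9139 normalized reads in C48, the highest of the HT mice, and at 260 and 284 in C54 and C55, against 6305, 5121, 5649, 3391 and 2211. Smad3, a mediator of myostatin and TGF-beta signals, was at 2262, 380 and 238 against 1411, 1878, 2030, 1210 and 1318. Sesn1, a sestrin that restrains mTORC1, was at 300, 2434 and 1690 against 588, 754, 788, 845 and 787. C48 was thus above the other HT mice where the pair was below in Igfbp5 and Smad3, and below where the pair was above in Sesn1. Eda2r, a receptor of the tumor necrosis factor family, was at 3030, 1862 and 1298 against 356, 526, 546, 957 and 1545, with C48 highest and C62 above C55. Hspa1b was high in C54 alone, as given above, and Adamts2, a procollagen protease, in C55 alone (1099, against 77.8 to 222 in the other 7).

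**Figure D4:**
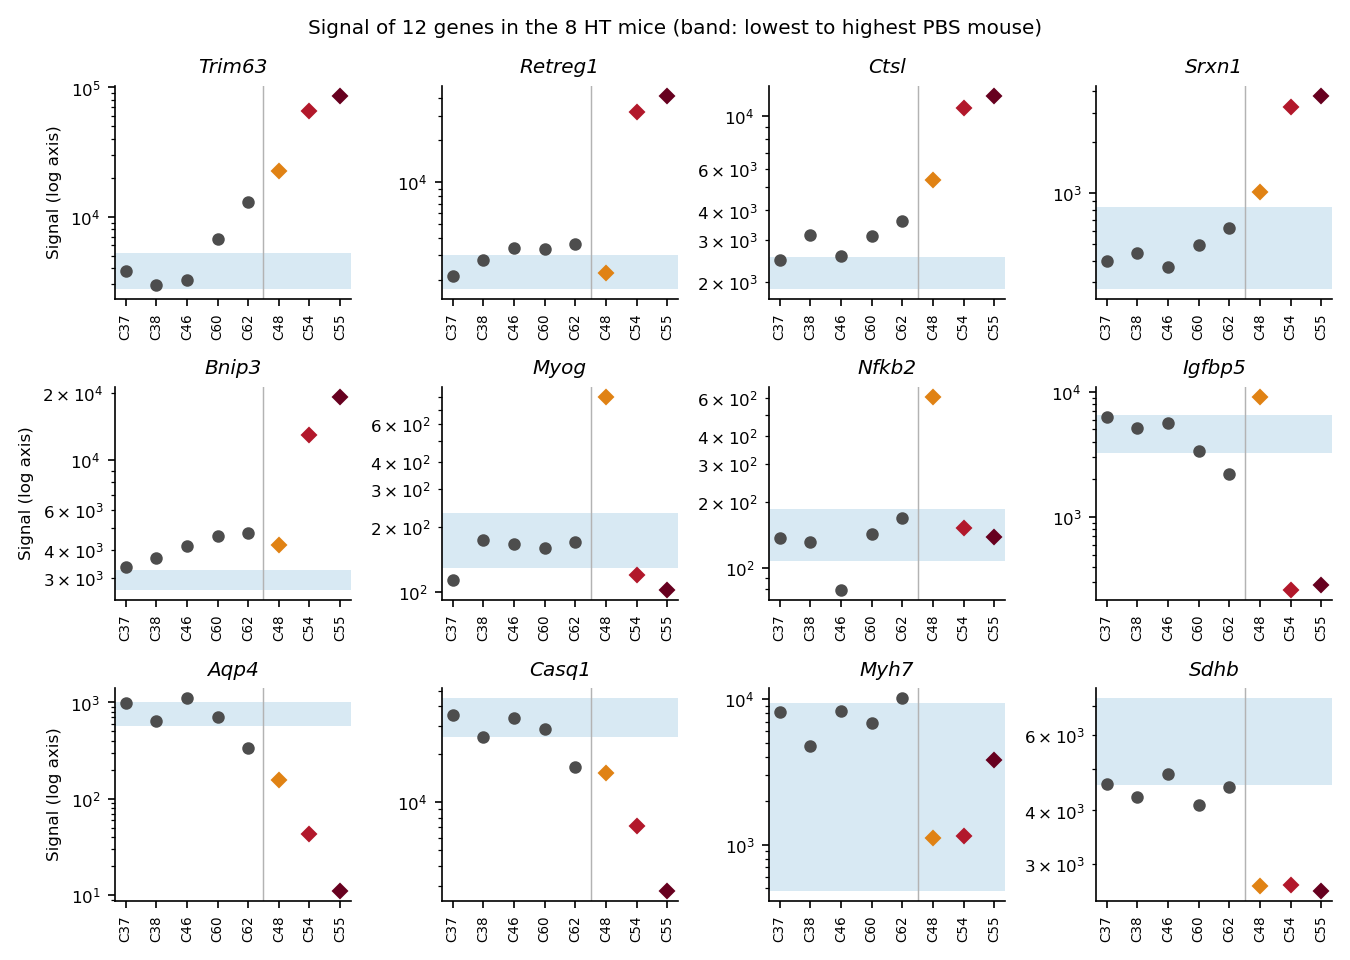
Levels of 12 genes (y axis, signal in normalized reads on a log axis) in each of the 8 HT mice (x axis), 1 point per mouse, with a band from the lowest to the highest PBS mouse. C48 lies between the pair and the other 5 for Trim63, Ctsl, Srxn1, Aqp4 and Casq1, with the other 5 for Retreg1 and Bnip3 and alone at the top for Myog, Nfkb2 and Igfbp5, while the 3 mice are level for Sdhb.

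Markers of other cell types differed in how they lay. Fibroblast markers had 5 of 19 genes below and 0 above, and collagen and matrix genes 6 of 34 and 0. The fibroblast list value was -0.93 in C54 and -0.82 in C55 but -0.05 in C48, and the summed level of these markers was 17136 to 22654 normalized reads in the 3 against 21448 to 32959 in the 5. Col1a1, the main fibrillar collagen, was at 458, 133 and 60.8 against 263, 933, 594, 365 and 295. In bulk muscle, fewer cells of a type and less RNA per cell cannot be told apart. Macrophage markers had 1 of 25 above, erythroid markers 1 of 15 above and adipocyte markers 0 of 13. Their summed levels overlapped between the 2 sets, at 3287 to 4946 against 3796 to 8150 for macrophages and 66197 to 143531 against 52861 to 171751 for erythroid cells. Endothelial markers had 2 of 20 above and 4 below, with sums of 7312 to 8569 against 7833 to 9156. Smooth muscle and pericyte markers had 0 of 11 above and 2 below (sums of 46788 to 84238 against 45337 to 51754). That list includes desmin (Des), which is also on the myofibre list, so the sums are not those of smooth muscle and pericytes alone. Of the 11 markers 9 had a lower mean in the 3, with a median difference of -0.38 (log2). Nerve and Schwann cell markers had 1 of 11 above and 1 below (1041 to 1270 against 1229 to 2012), and endothelial activation markers 0 of 9 on either side (707 to 931 against 736 to 982). The nerve and Schwann cell list value was lowest in C48, at -0.40. None of 20 lymphocyte markers and only 1 of 14 epithelial and tumor markers, Mki67, is in the table. Myofibre markers were present in all mice, with 5 of 14 below and a summed level of 1480730 to 1998200 in the 3 and 1912400 to 2562000 in the 5. The part of these cell types in the other results was not tested.

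The comparison the study's groups imply is that of all 8 HT mice with 8 PBS and with 8 LT mice, fitted with limma over all 40 mice, with p-values adjusted by Benjamini-Hochberg over all genes and called under 0.05. In HT against PBS 2069 genes were higher (16.5%) and 2071 lower (16.5%). Without the proteasome-high mice 943 were higher (7.5%) and 1085 lower (8.63%), and 843 and 909 of these had been called with them. Set against LT, the HT mice had 1250 higher genes (9.94%) and 1314 lower ones (10.5%), and without the 3 mice 154 (1.22%) and 246 (1.96%). Of the calls against LT 139 higher genes (11.1%) and 226 lower ones (17.2%) were still called. The mice left out had been chosen for high values, so that the 5 remaining mice are not a random part of HT, and fewer mice also leave less power. C54 and C55 weighed most: without C54 the calls against LT were 653 higher and 833 lower, and without C55 682 and 859. With only HT and LT in the fit 197 and 327 genes were called. With equal library totals the calls were 2646 higher and 1419 lower against PBS and 1635 and 929 against LT. The 2 comparisons share the HT mice.

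**Figure D5:**
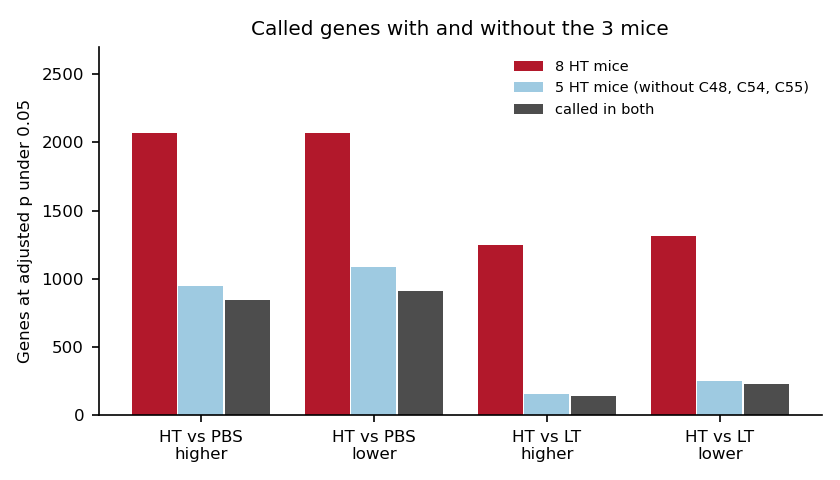
Number of genes called higher or lower (limma, adjusted p under 0.05) in HT against PBS and against LT, with all 8 HT mice, without C48, C54 and C55, and in both. Against LT the bars shrink from 1250 and 1314 genes to 154 and 246.

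Named genes differed in how far their call rested on the 3 mice. Fbxo32 rose by 2.16 ± 0.42 (log2, SE) in HT over PBS with a limma adjusted p of 0.000216, and still rose without the 3 mice, by 1.11 (adjusted p = 0.0201). Against LT it rose by 1.64 (adjusted p = 0.00615), and without them the difference was 0.59 (adjusted p = 0.335). Trim63 rose by 1.75 ± 0.45 over PBS (limma adjusted p = 0.00337), and the call was lost without the 3 (0.50, adjusted p = 0.255). Psmd2 rose by 0.77 ± 0.15 over PBS (limma adjusted p = 0.000211) and by 0.38 without them (adjusted p = 0.0201). Bnip3 rose by 1.01 ± 0.21 (limma adjusted p = 0.000462) and by 0.51 without them (adjusted p = 0.000856), with a smaller p-value than Fbxo32 once the 3 were left out. Stat3, the transcription factor downstream of interleukin-6, was nearly independent of the 3 mice, at 1.05 over PBS with them and 0.89 without (limma adjusted p = 2.51e-07 and 1.04e-05).

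Against PBS, 16.5% of all genes were called higher with all HT mice and 7.5% without the 3, and against LT 9.94% and 1.22%. Of 32 proteasome subunits 29 rose over PBS with all HT mice and 11 without the 3. Against LT the numbers were 28 and 1, the single subunit being Psmd8 (0.39, limma adjusted p = 0.0454). Of the autophagy and lysosome genes 14 of 35 rose over PBS and 6 without the 3, with Ctsl kept (1.06, limma adjusted p = 0.000543, then 0.46 with adjusted p = 0.0294). Of the NRF2-responsive genes 12 of 20 rose and 5 without the 3. Srxn1 was among those lost, with a limma adjusted p of 0.0275 and then 0.847. Fitting only the 2 groups compared also ended the calls of Trim63 (limma adjusted p = 0.0502), Srxn1 (0.136) and Aqp4 (0.0995) against PBS and of Fbxo32 against LT (0.0864). Because the 3 mice were chosen for high proteasome values, a loss of proteasome calls without them was built into the choice.

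Energy genes were counted in the same way. Of all genes 16.5% were called lower against PBS and 8.63% without the 3 mice, and against LT 10.5% and 1.96%. Only 17.2% of all lower calls against LT were kept without the 3, so a loss of calls was not in itself particular to these lists. In complex I 36 of 37 genes fell in HT against PBS and 23 without the proteasome-high mice, and against LT 35 and 17. In complexes II to V 36 of 42 fell against PBS and 25 without them, and against LT 36 and 15. In the citric acid cycle 14 of 25 fell against PBS and 4 without them, and against LT 17 and 1. In glycolysis 17 of 31 fell against PBS and 7 without them, and against LT 15 and 1. Against LT, complex I and complexes II to V were thus left with a larger part of their calls than all genes. The citric acid cycle and glycolysis were left with a smaller part. Sdhb fell by 0.63 over PBS (limma adjusted p = 0.000972), but without the 3 mice the difference was -0.34 (adjusted p = 0.0745). Myoz3, a fast fibre Z-disc protein, fell with and without them (-1.30 and -0.62, limma adjusted p = 0.000136 and 0.00108). Nrep, a neuronal regeneration related protein, fell furthest of the genes named here, by 2.23 and 1.33 (limma adjusted p = 1.39e-05 and 0.000222). Aqp4 and Casq1 fell with all 8 HT mice, with log2 differences of -1.73 and -1.19 (limma adjusted p = 0.00898 and 0.00191), and neither was called without the 3 (adjusted p = 0.493 and 0.0503).

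The number of calls in some other lists changed little without the 3 mice. Of all genes 16.5% were higher and 16.5% lower against PBS, and 7.5% and 8.63% without the 3. Interferon-induced genes fell in 22 of 28 members over PBS and in 20 without them, and neutrophil markers rose in 7 of 8 either way. Erythroid markers rose in 10 of 15 either way. In the split itself these lists had 0 of 28, 0 of 8 and 1 of 15 members above, and 2, 0 and 0 below. Depth differed between PBS and HT, and its part in these calls was not tested.

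Whether genes followed Fbxo32 from mouse to mouse was tested where it had not been used, within the 8 mice of each of the PBS, 1wk, 2wk and LT groups, for Psmd2, Bnip3, Casq1 and Stat3. None of the 16 exact permutation tests passed Benjamini-Hochberg adjustment, and 2 had an unadjusted p under 0.05. Psmd2 correlated with Fbxo32 in 2wk with r = 0.86 (two-sided exact permutation p = 0.00526, adjusted 0.0841) and rho = 0.74 (exact p = 0.0458). Without the 2 mice farthest in Fbxo32 r was 0.75. In LT, r was 0.71 (exact permutation p = 0.0467, adjusted 0.373) and rho 0.69 (exact p = 0.0694), and without the 2 farthest mice r was 0.85. In PBS r was 0.13, and in 1wk it was 0.45 and turned to -0.63 without the 2 farthest mice. Fbxo32 ranged only from 1916 to 5184 in 2wk and from 2874 to 8393 in LT, well below the proteasome-high mice. The relation of Fbxo32 and the proteasome in HT was part of the choice of mice and was not tested.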

How the data were processed

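RNA of the gastrocnemius of 40 female mice was sequenced as stranded mRNA libraries with single reads of 50 bases, which the authors mapped by STAR 2.7.8a. The authors quantified RefSeq genes in Partek, kept genes with at least 30 reads and scaled them by the median ratio method of DESeq2. The deposited signal values are thus scaled gene read estimates and not counts: 1815 of 502920 values equal a whole number exactly, with no tolerance, and the smallest value is 1.77e-09. Submitters' processing notes name mm10 and mm39 as builds. Tables of the authors' own comparisons (p-values and ratios) were not used.

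Values were taken as log2(value + 1). HT was compared with PBS and LT by limma 3.58.1 (R 4.3.3) with a mean-variance trend, 5 groups in 1 fit, all 12573 genes and Benjamini-Hochberg adjustment. The split of HT mice was described by means, overlap and counts, and the correlations were tested by exact permutation (scipy 1.17.1). The fit was tested on simulated data in which all genes and mice shared 1 dispersion. That test cannot show how the fit handles a wider spread in HT. Depth was estimated from the steps between low values. The mice, members and gene lists were chosen with earlier results of these data known. Genes were named by rule: the marker genes, the 15 with the highest and 15 with the lowest difference between the 3 and 5 HT mice without overlap at an HT mean of at least 50, up to 4 members per list by size of difference, and the correlation genes. Other named genes (Psmb7, Psmc5, Psmd12, Psmb5, Pomp, Nfe2l1, Klhl31, Trim55, Fbxo40, Ulk2, Becn1, Gsta4, Flnc, Nrap, Musk, Runx1, Chrne, Mki67 and those called so in the text) were chosen after their values were seen. Alternatives were the pseudocount, a filter on low values, the scaling, library weights, the groups in the fit and leaving out mice. Each mouse is a sample of its own.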

Additional observations from a re-analysis of the deposited data

Results flagged for a closer look

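In 25 groups of 8 mice examined for a sample far from the others (5 measures in each of 5 groups, of which chance alone marks about 1 in 20), 3 such samples were found, none of them in HT. The log2 level of Fbxo32 in 2wk was 12.34 in C27, and 11.55 in the next mouse. The log2 level of Psmd2 in PBS was 11.24 in C4, below the next at 11.69. The value of the proteasome list in 1wk was 0.2411 in C17, and -0.007685 in the next mouse, still far below C48 at 0.81.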

How the results depend on the processing

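Counts of calls moved with the mice and groups in the fit and, against LT, with library weights. For HT against PBS (2069 higher, 2071 lower) they were 943 and 1085 without C48, C54 and C55, 1192 and 1274 without C54 and C55 alone, and 1249 and 1198 with only the 2 groups in the fit. For HT against LT (1250 and 1314) they were 154 and 246, 379 and 533, and 197 and 327, and 135 and 225 with library weights. Leaving out each HT mouse in turn gave 1600 to 2237 higher and 1613 to 2247 lower genes against PBS, and 653 to 1585 and 833 to 1573 against LT (682 and 859 without C55). The HT split gave 1338 genes above and 1326 below, and 2753 and 2403 with C54 and C55 against the other 6 (735 and 874 at 2-fold or more). Leaving out each HT mouse in turn gave 1464 to 3156 above, 1458 to 2914 below, 184 to 818 above by 2-fold and 342 to 1011 below by 2-fold, the highest each time without C48. The settings without C54 and C55 and with the pair against 6 were chosen after seeing the data.

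Of the differences of single genes, Atp2a1 in the split turned to 0.0917 after quantile normalization, 0.18 with the pair against 6, 0.11 without C48 and 0.0014 without C60. Nfe2l1 turned to -0.10 with the pair against 6 and -0.0416 without C48. The correlation of Casq1 with Fbxo32 in PBS, 0.11, turned to -0.0843 after quantile normalization. For all of these the cause was not tested. Library weights, too, ended the calls of Srxn1 (adjusted p = 0.311) and Aqp4 (0.0692) against PBS and of Fbxo32 against LT (0.187), and leaving out C54 or C55 ended that of Srxn1 (0.101 and 0.104). All of the other alternatives for single genes in the tested comparisons kept direction and call, except those without C54 and C55 or without all 3 mice, where 10 calls were lost. No paired analysis was possible because mouse numbers are not shared between the groups. The low depth of HT and LT limits genes of few reads, and the deposited values carry no counts for a count test.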
